A study of Mus musculus with 8 samples.

Results

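Transcripts of genes that mark or serve fat cells were followed in whole mouse lung: Adipoq, Cfd and Retn, which encode secreted proteins, Plin1, Cidec and Cidea, which encode lipid droplet proteins, Fabp4, a fatty acid carrier, and Ucp1, the mitochondrial uncoupling protein of brown fat. The genes were chosen by name, with earlier results of these data known, as 8 symbols looked up in a table of 15728 genes. The table listed 7 of the 8. Ucp1 was not analysed here. The assay was CAGE (cap analysis of gene expression). It reads a tag from the capped start of each RNA, so a transcript gives 1 tag whatever its length, and levels can be compared between genes without scaling to length.

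The study compared lungs of 4 wild type mice with lungs of 4 mice labelled triply n/i/eNOSs-/-, which lack all 3 nitric oxide synthases (the neuronal, inducible and endothelial isoforms) and are called the knockout here. Both groups had a C57BL/6J strain background, were 4 weeks of age and had not been exposed to any agent. The labels give no sex, and do not say whether the wild type mice were littermates of the knockout mice. The series is titled for the role of these enzymes in pulmonary emphysema, and the comparison asks what their absence changes in the untreated lung.

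White adipocytes store triglyceride in a large lipid droplet and release hormones, among them adiponectin, resistin and leptin, and the complement protease adipsin. Perilipin 1 coats the droplet and controls access of lipases to it, and CIDE proteins let droplets exchange and enlarge. Brown adipocytes carry many small droplets and burn fat as heat through uncoupling protein 1. Some of these genes are also used outside fat: capillary endothelium and macrophages make FABP4, and the lung holds lipid-handling cells of its own, including lipofibroblasts and alveolar macrophages.

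The libraries held 15598154 to 18593913 reads in wild type and 13014134 to 15096188 reads in the knockout, so every knockout library was shallower than every wild type library. At these depths 3 reads of a gene correspond to 0.161 to 0.231 counts per 1000000 reads (CPM), which covers counting error only. Nos3, the endothelial synthase, went from 19.8 ± 2.06 to 7.37 ± 1.49 CPM (SD, n = 4 each) and its genotypes did not overlap. The sources used here do not say how its tags lie to the deleted part, and Nos1 and Nos2 were not analysed here, so this checks the genotype only in part. Genes were tested where 4 or more libraries reached 1 CPM. Of these 14065 genes, 30.9% passed limma at a Benjamini-Hochberg adjusted p under 0.05, with 16.6% higher and 14.3% lower in the knockout, and 31.2% had genotypes that did not overlap. The 7 lung check genes, led by Scgb1a1 of club cells and Sftpc of alveolar type 2 cells, summed to 151771 to 167273 CPM in wild type and 118012 to 144825 CPM in the knockout, so the tissue label held. The genotypes did not overlap in this sum. Of the 7, 1 was called higher, Epcam, and 2 lower, Foxj1 and Sftpc. Sftpc went from 75406 ± 7581 to 40739 ± 4973 CPM (SD, n = 4 each, limma adjusted p = 0.000299). Its call was lost after quantile normalization (limma adjusted p = 0.188). The p-values measure the spread between these samples, which the labels describe as separate mice.

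The levels of the 7 listed genes differed widely. Cfd was the highest, with 28.78 to 135.05 CPM over the 8 libraries. Cidec and Fabp4 followed at 8.72 to 14.09 and 7.44 to 14.67 CPM and did not separate from each other. Retn and Adipoq, at 1.35 to 8.6 and 0.97 to 7.51 CPM, overlapped with each other over the libraries. Cidea and Plin1 were the lowest, at 1.67 to 3.44 and 0.77 to 3 CPM, the latter resting on 10 to 52 reads a library. The reads of Adipoq, 14 to 130 a library, show the counting precision at the level of the secreted hormones.

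All 7 listed genes passed the filter on low values. None was called higher in the knockout and 2, Retn and Plin1, were called lower, 2 of 7 beside 14.3% of all genes. No member was called higher by edgeR or DESeq2 on recovered reads either, and at an unadjusted limma p under 0.05 there were 0 higher and 3 lower, beside 22.7% and 19.9% of all genes. The median log2 fold change of the 7 was -0.69, beside 0.01 over all genes tested. In 0 of the 7 did the genotypes separate, beside 31.2% of all genes: each had at least 1 knockout library at or above the lowest wild type library.

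**Figure D1:**
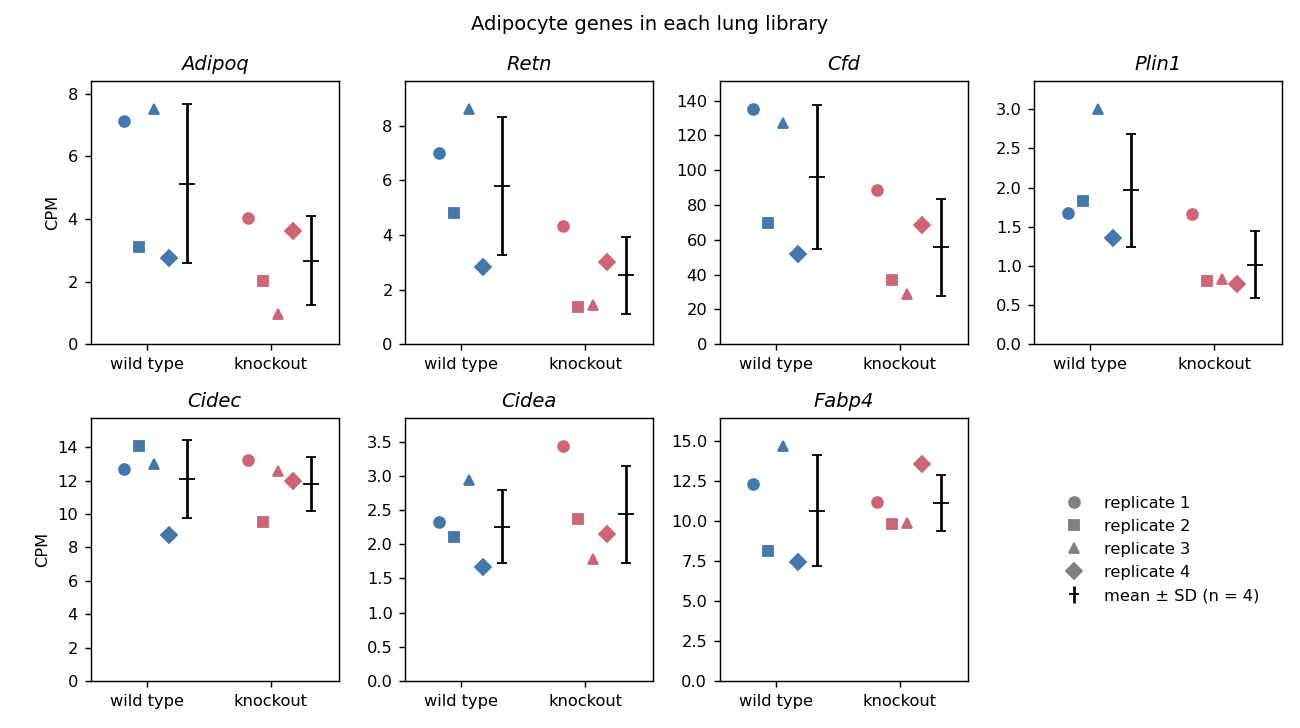
Level of each listed gene in CPM (vertical axes, linear, from 0) in the 4 wild type and 4 knockout libraries; points are libraries and bars are group means with SD. The knockout means of Adipoq, Cfd, Retn and Plin1 lie below the wild type means, those of Cidec, Cidea and Fabp4 lie close to them, and the points overlap between genotypes in every panel.

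The sequences just upstream of the annotated starts are shown for Adipoq, Cfd and Retn, whose levels moved together from mouse to mouse, and for Cidec, whose relation to Adipoq did not pass its test. Each is the 120 bases before the RefSeq start in GRCm38.p6, read 5′ to 3′ on the gene's strand, and capitals mark matches to the motifs named after them. The deposited values were made on mm9, so the sequences were matched by gene symbol and not by position.
Adipoq: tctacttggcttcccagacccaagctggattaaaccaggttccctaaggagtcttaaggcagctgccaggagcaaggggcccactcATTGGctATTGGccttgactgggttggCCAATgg
Cfd: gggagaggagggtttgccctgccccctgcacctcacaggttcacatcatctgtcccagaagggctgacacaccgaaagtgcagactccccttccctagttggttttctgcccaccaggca
Retn: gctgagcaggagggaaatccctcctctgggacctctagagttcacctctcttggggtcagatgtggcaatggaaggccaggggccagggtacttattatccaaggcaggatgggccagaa
Cidec: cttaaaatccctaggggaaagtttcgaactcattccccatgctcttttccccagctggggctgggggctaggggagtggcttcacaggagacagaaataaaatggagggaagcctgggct
The windows lie at chr16:23146416-23146535 (plus strand) for Adipoq, chr10:79890733-79890852 (plus strand) for Cfd, chr8:3655650-3655769 (plus strand) for Retn and chr6:113435761-113435880 (minus strand) for Cidec. Cidec has another RefSeq start in the same table, and 6 of the 8 genes were matched. The TATA box motif TATAAA was searched on the gene strand and is held by 4.19% of 32851 mouse promoter windows of this length. The motif CCAAT was searched on both strands, like those that follow, and is held by 21.3% of windows. The motif TTGCNNAA of C/EBP factors is held by 4.15%. The nuclear receptor motif AGGTCA is held by 6.91%, and its direct repeat DR1, in which it can lie, by 0.17%. The Adipoq window held CCAAT 3 times, once on the gene strand and the other two on the opposite strand, where the printed strand shows its complement. The windows of Cfd, Retn and Cidec held no match, which says only that these letters are absent there. Among the windows not printed, that of Plin1 held TTGCNNAA and that of Ucp1 held AGGTCA.

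Retn, which encodes resistin, a hormone that mouse adipocytes secrete and that is tied to insulin resistance, was the member with the largest difference. It stood at 7, 4.79, 8.6 and 2.82 CPM in wild type libraries 1 to 4 and at 4.31, 1.35, 1.45 and 3 CPM in knockout libraries 1 to 4. Wild type 4 was below the knockout libraries 1 and 4, and knockout 2 and 3 were below every wild type library. The mean went from 5.8 ± 2.53 to 2.53 ± 1.41 CPM (SD, n = 4 each), 0.436 times the wild type mean. Retn fell by 1.08 on the log2(CPM + 0.5) scale (SE 0.35, 95% interval -1.85 to -0.30, limma adjusted p = 0.0386). The call did not hold without wild type 1, 2 or 3 or knockout 2 or 3, where the limma adjusted p was 0.0985, 0.0643, 0.11, 0.0927 and 0.103, nor in DESeq2, where it was 0.059. The decrease kept its sign in every alternative run.

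Adipoq, which encodes adiponectin, the most adipocyte-restricted of these hormones, was measured at 7.12, 3.12, 7.51 and 2.76 CPM in wild type 1 to 4. In knockout 1 to 4 it was measured at 4.04, 2.03, 0.97 and 3.61 CPM. Wild type 1 and 3 were the highest libraries and knockout 3 the lowest, while wild type 2 and 4 lay among the knockout libraries. The means were 5.13 ± 2.54 and 2.66 ± 1.42 CPM (SD, n = 4 each), a ratio of 0.519. The log2 difference of -0.84 (SE 0.38) did not pass the test (limma adjusted p = 0.118).

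Cfd encodes complement factor D, the adipsin of fat tissue and the protease that cleaves factor B in the alternative complement pathway. Its levels were 135.05, 69.92, 127.2 and 52.12 CPM in wild type 1 to 4 and 88.43, 36.85, 28.78 and 68.31 CPM in knockout 1 to 4. The order of the libraries within each genotype resembled that of Adipoq: wild type 1 and 3 were high and knockout 2 and 3 were low. It rested on 417 to 2258 reads a library. The means were 96.1 ± 41.2 and 55.6 ± 27.8 CPM (SD, n = 4 each), and the log2 difference of -0.82 (SE 0.37) did not pass the test (limma adjusted p = 0.116). Without knockout 1, the highest knockout library, the log2 difference was -1.08 and passed, with a limma adjusted p of 0.0382.

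Plin1, which encodes perilipin 1, the coat protein of the adipocyte lipid droplet, had 1.67, 1.83, 3 and 1.35 CPM in wild type 1 to 4. The knockout libraries 1 to 4 had 1.66, 0.81, 0.83 and 0.77 CPM. Knockout 1 lay among the wild type libraries and the other three knockout libraries lay close together below them. Plin1 fell by 0.69 on the log2(CPM + 0.5) scale (SE 0.23, 95% interval -1.21 to -0.18, limma adjusted p = 0.0438), from 1.96 ± 0.72 to 1.02 ± 0.43 CPM (SD, n = 4 each). It passed the filter through the 4 wild type libraries and knockout 1, so it entered the test by way of the group in which it is high. Its call did not hold without wild type 1, 2 or 3 or knockout 2, 3 or 4, with limma adjusted p-values of 0.0657, 0.0807, 0.12, 0.0913, 0.0994 and 0.0968, nor after quantile normalization, with 0.0575.

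Cidec and Cidea encode CIDE proteins, of which CIDEC, also called FSP27, favours the large droplet of white adipocytes and CIDEA is known from brown adipocytes. Cidec stood at 12.68, 14.09, 12.99 and 8.72 CPM in wild type 1 to 4 and at 13.25, 9.53, 12.56 and 11.99 CPM in knockout 1 to 4. The lowest library was a wild type one and the genotypes covered nearly the same range. The log2 difference was -0.02 (SE 0.15, 95% interval -0.35 to 0.31, limma adjusted p = 0.923), and its sign turned after quantile normalization, to 0.01. Cidea had 2.33, 2.1, 2.94 and 1.67 CPM in wild type 1 to 4 and 3.44, 2.37, 1.79 and 2.15 CPM in knockout 1 to 4. Its highest and its second lowest libraries were both knockout. The log2 difference of Cidea was 0.08 (SE 0.19, 95% interval -0.35 to 0.51, limma adjusted p = 0.782), and it was -0.03 without wild type 4 and -0.07 without knockout 1. A non-coding transcript with no row in the table overlaps Cidea on the opposite strand in GENCODE, and the sources used here do not state whether tags were counted by strand.

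Fabp4 encodes the fatty acid binding protein aP2, abundant in adipocytes and also made by capillary endothelium and macrophages. It had 12.32, 8.12, 14.67 and 7.44 CPM in wild type 1 to 4 and 11.19, 9.81, 9.87 and 13.52 CPM in knockout 1 to 4. The wild type libraries held both the highest and the lowest values, and the knockout libraries all lay between these. The log2 difference was 0.10 (SE 0.20, 95% interval -0.33 to 0.53, limma adjusted p = 0.732), and it was -0.01 without wild type 2 and -0.05 without wild type 4. The summed level of 11 capillary endothelial markers was 3104 to 3477 CPM in wild type and 3202 to 3649 CPM in the knockout, and that of 10 alveolar macrophage markers was 793 to 938 and 734 to 935 CPM. Of the 11 capillary genes, all tested, 1 was called higher, Cdh5, and 1 lower, Tmem100, beside 16.6% and 14.3% of all genes. The call for Cdh5 was lost without wild type 1, 2 or 4 or knockout 2 or 3 (limma adjusted p up to 0.112). That for Tmem100 was lost without wild type 2 or 3 or knockout 1 or 3 (up to 0.0747). Of the 10 alveolar macrophage genes 3 were called higher, Ear2, Marco and Plet1, and 0 lower, and these calls held in every alternative. Neither sum separated the genotypes, and the part of capillary endothelium and macrophages in the level of Fabp4 was not tested.

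**Figure D2:**
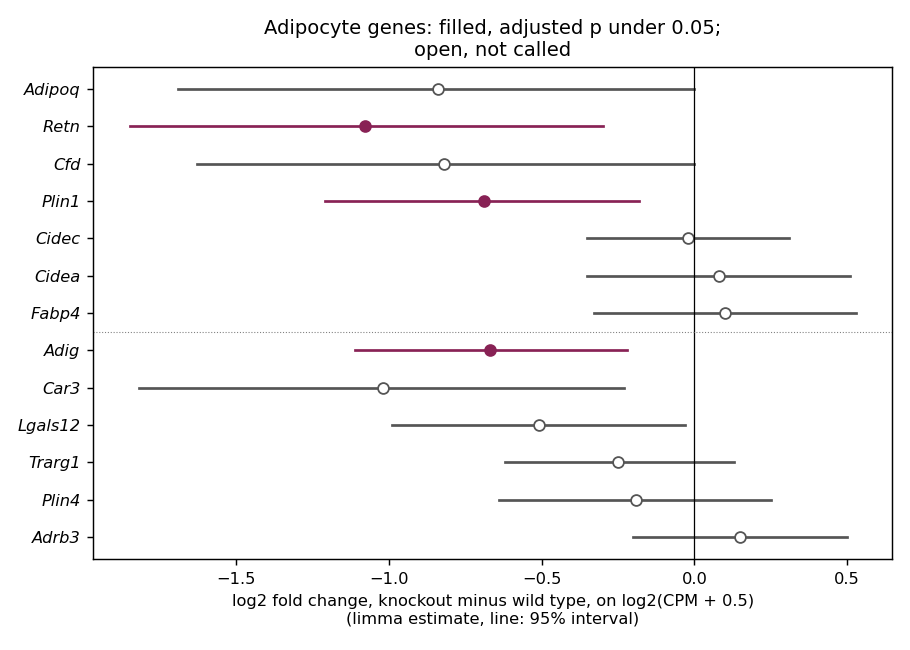
Log2 fold change, knockout minus wild type, on the log2(CPM + 0.5) scale (horizontal axis) with 95% limma intervals for the 7 members, above the dotted line, and 6 other adipocyte-defining genes, below it; filled points passed an adjusted p of 0.05. Retn, Plin1 and Adig are filled and below 0, and the intervals of Cidec, Cidea and Fabp4 span 0.

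The levels of Adipoq, Cfd and Retn moved together over the 8 mice. On the log2(CPM + 0.5) scale Cfd followed Adipoq with Pearson r = 0.98 (exact permutation p = 9.92e-05, adjusted over the 6 relations to Adipoq 0.000595) and Spearman rho = 0.95 (exact permutation p = 0.00114, adjusted 0.00685). Retn followed it with r = 0.92 (exact permutation p = 0.00198, adjusted 0.00595) and rho = 0.90 (exact permutation p = 0.00456, adjusted 0.0137). Without wild type 3 and knockout 3, the libraries farthest from the median of Adipoq, r was 0.98 for Cfd and 0.88 for Retn. With each genotype's mean subtracted, r was 0.97 for Cfd and 0.89 for Retn. The permutations ran over all 8 libraries without regard to genotype, so their p-values do not test the relation within genotypes. All points share their libraries, and with 4 mice a genotype no r is given within a genotype.

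The other members followed Adipoq less closely, and none of their relations passed after adjustment. Plin1 had r = 0.74 (exact permutation p = 0.0338, adjusted 0.0677) and rho = 0.62 (exact permutation p = 0.115, adjusted 0.138), and r = 0.50 without the same pair of libraries. Fabp4 had r = 0.59 (exact permutation p = 0.125, adjusted 0.162) and rho = 0.71 (exact permutation p = 0.0576, adjusted 0.115), and Cidea had r = 0.57 (exact permutation p = 0.135, adjusted 0.162) and rho = 0.62 (exact permutation p = 0.115, adjusted 0.138). Without wild type 3 and knockout 3, r was 0.56 for Fabp4 and 0.27 for Cidea. With genotype means subtracted, r was 0.83 for Fabp4, 0.80 for Cidea and 0.59 for Plin1. Cidec had r = 0.32 (exact permutation p = 0.447) and rho = 0.50 (exact permutation p = 0.216), and r = 0.57 without that pair of libraries. Whether these relations differ from those of Cfd and Retn was not tested. Adipoq is only 1 possible reference: with genotype means subtracted, r was 0.96 between Cfd and Retn, 0.90 between Cidea and Plin1, 0.84 between Cidea and Retn, 0.82 between Cidea and Cfd, 0.77 between Retn and Plin1 and 0.70 between Retn and Cidec.

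**Figure D3:**
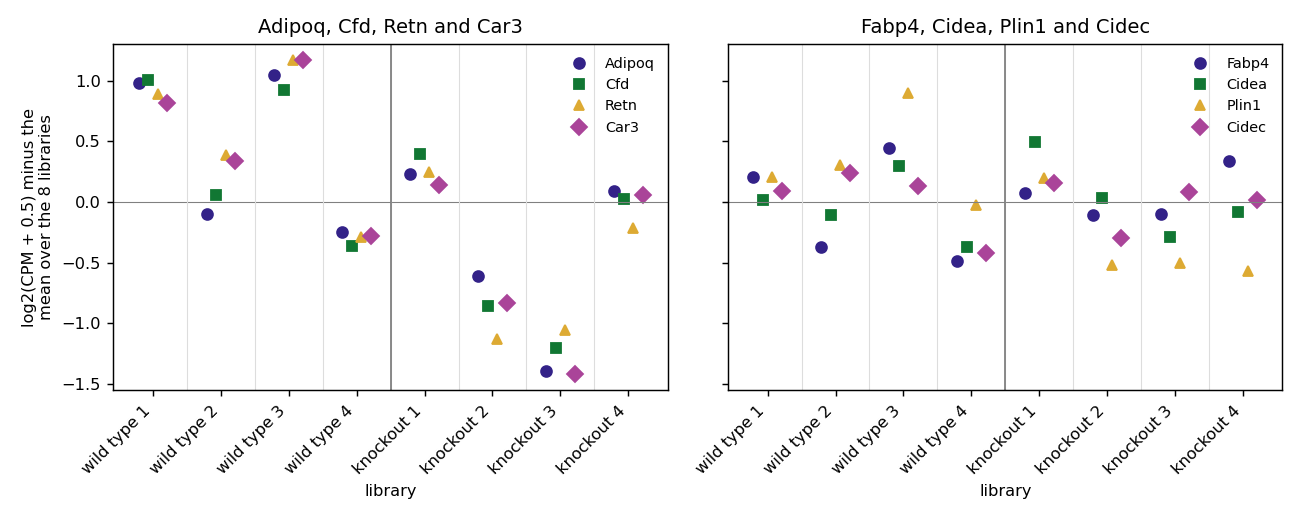
Level of each gene in each library as log2(CPM + 0.5) minus the gene's mean over the 8 libraries (vertical axis), with the libraries on the horizontal axis and a solid line between genotypes. On the left, Adipoq, Cfd, Retn and Car3 lie near each other in each library, high in wild type 1 and 3 and low in knockout 2 and 3; on the right, Fabp4, Cidea, Plin1 and Cidec lie closer to 0 and are more scattered.

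Ratios to Adipoq within a library, which do not depend on the library total, were compared next. The ratio of Cfd to Adipoq was 16.9 to 22.4 in wild type and 18.2 to 29.7 in the knockout, with the highest of the 8 being 1.75 times the lowest. The ratio of Retn to Adipoq was 0.983 to 1.54 in wild type and 0.665 to 1.49 in the knockout, a range of 2.31 times. The ratio of Cidec to Adipoq was 1.73 to 4.52 in wild type and 3.28 to 12.9 in the knockout, a range of 7.49 times. That of Fabp4 was 1.73 to 2.7 and 2.77 to 10.2, that of Cidea 0.327 to 0.673 and 0.596 to 1.85, and that of Plin1 0.235 to 0.587 and 0.213 to 0.856. The highest ratios to Adipoq of Cidec, Fabp4, Cidea, Plin1 and Cfd were all in knockout 3, where Adipoq had 14 reads. Leaving out knockout 3 was a choice made after seeing the data. Without it, the highest ratio was 2.71 times the lowest for Cidec, 2.79 for Fabp4, 3.57 for Cidea and 2.75 for Plin1. It was 2.31 for Retn and 1.32 for Cfd. So much of the wider ranges of Cidec, Fabp4, Cidea and Plin1 rests on that library. The ratios of Fabp4 narrowly did not overlap between genotypes, and without knockout 3 those of the knockout were 2.77 to 4.83. This difference was not tested.

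**Figure D4:**
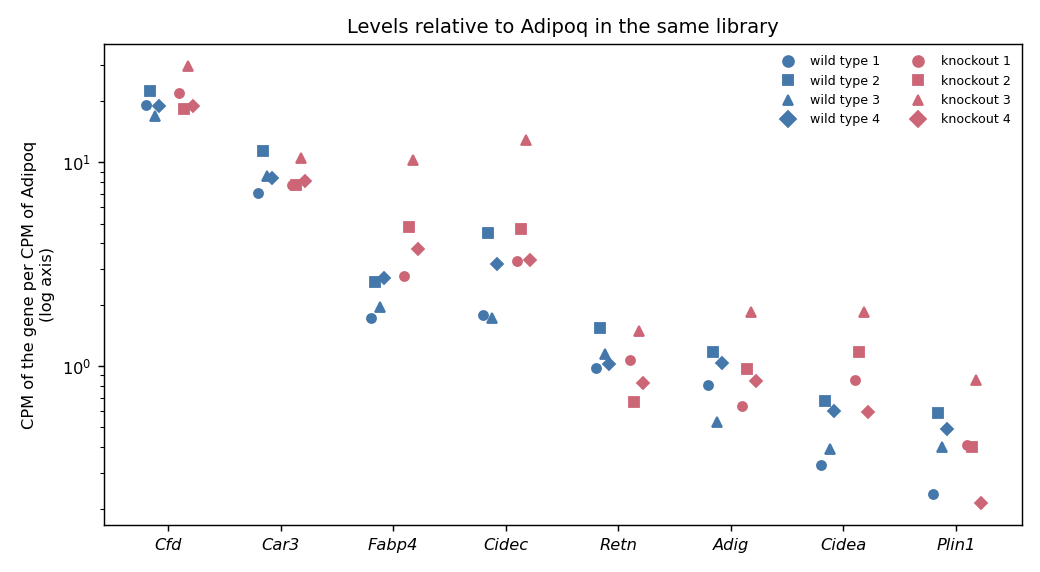
Ratio of the CPM of each gene to that of Adipoq in the same library (vertical axis, log scale), by genotype; points are libraries. The points of Cfd and Car3 lie within 1.75 and 1.63 times of each other and those of Adig within 3.48 times; those of Cidec, Fabp4 and Cidea spread over 5.64 to 7.49 times with knockout 3 and 2.71 to 3.57 times without it.

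Adipoq, Cfd and Retn varied more between mice of the same genotype than nearly all genes of like level. The SD within genotype, on the log2(CPM + 0.5) scale, was 0.72 for Adipoq, 0.71 for Cfd and 0.65 for Retn, against a median of 0.14 over the 14065 genes tested. Among genes with mean levels within a factor of 2 of their own, these values lay at percentiles 98.9 (of 2883 genes, median SD 0.21), 99.7 (of 3271 genes, median 0.11) and 98.5 (of 3011 genes, median 0.20). Plin1 had an SD of 0.38, Fabp4 of 0.35, Cidea of 0.30 and Cidec of 0.25, at percentiles 86.7, 96.9, 76.2 and 89.5. In wild type alone, Cfd was at 135.05 CPM in the highest and 52.12 CPM in the lowest mouse.

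**Figure D5:**
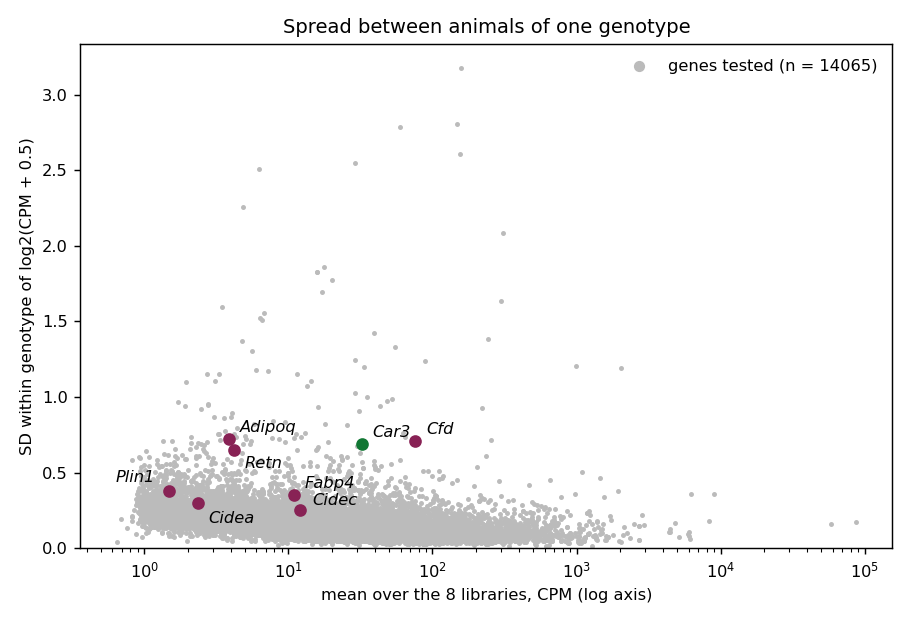
Within-genotype SD of log2(CPM + 0.5) (vertical axis) against mean CPM over the 8 libraries (horizontal axis, log scale) for 14065 genes, with the members and Car3 marked. Adipoq, Cfd, Retn and Car3 lie near the upper edge at SDs of 0.65 to 0.72, and Cidec at 0.25 lies nearer to the bulk of genes.

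The genes whose within-genotype deviations were most like those of Adipoq were sought among all other genes tested, with genes named only by a number left out. Cfd came first at r = 0.97, and the next were Drc7, Car3, Col27a1, Gtf2h2, Tnnt1, Epsti1, Prrx1, Leng9 and Sympk, with r = 0.93 to 0.97 for deviations from the genotype means. With those means left in, r over the 8 libraries was 0.26 for Gtf2h2, -0.09 for Tnnt1, 0.66 for Leng9 and 0.75 for Prrx1. Retn was at rank 23, Fabp4 at 78, Adig at 84, Cidea at 99, Plin4 at 167, Plin1 at 707 and Cidec at 2376. Of the 10, Car3, the carbonic anhydrase 3 gene, abundant in adipocytes and slow skeletal muscle, was the gene of the adipocyte-defining list. Car3 stood at 50.06, 35.71, 64.09 and 23.08 CPM in wild type 1 to 4 and at 31.13, 15.62, 10.21 and 29.35 CPM in knockout 1 to 4, with wild type 3 highest and knockout 3 lowest as for Adipoq. Several of the others moved over a far narrower range, such as Drc7 at 4.07 to 7.51 CPM and Gtf2h2 at 17.43 to 20.93 CPM, and with Cidea at r = 0.80 holding rank 99, many genes reach such values.

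The wider list of 12 adipocyte-defining genes had 11 rows, 9 of them tested. Of these, 0 were called higher and 2 lower in the knockout, and the median log2 fold change was -0.51. The list includes the members Adipoq, Plin1 and Cidec, and Plin1, counted above, is 1 of the 2 called lower. Without members, 6 genes were tested, with 0 called higher, 1 lower, Adig, and a median of -0.38. Over all genes tested 16.6% were called higher and 14.3% lower, shares that also stand beside the counts of the lists below. Adig, the adipogenin gene, fell by 0.67 on the log2 scale, from 4.07 ± 1.21 to 2.35 ± 0.59 CPM (SD, n = 4 each, limma adjusted p = 0.0278), and its genotypes overlapped. Its call did not hold without wild type 1 or 3 or knockout 2 or 3, with limma adjusted p-values of 0.0756, 0.0611, 0.0641 and 0.0768. Car3 had a log2 difference of -1.02 (SE 0.36) that did not pass (limma adjusted p = 0.0517). It passed under TMM, median-ratio and quantile scaling and without wild type 4, knockout 1 or knockout 4, the lowest limma adjusted p being 0.0241 without wild type 4.

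The other adipocyte-defining genes did not pass the test. The log2 difference was -0.51 for Lgals12, a galectin of the lipid droplet, -0.25 for Trarg1, a regulator of glucose transporter traffic listed under its older symbol Tusc5, -0.19 for Plin4, another perilipin, and 0.15 for Adrb3, the adrenergic receptor of adipocytes. Lgals12 and Trarg1 did not follow Adipoq within genotypes, at ranks 11078 and 12284. Lep, the leptin gene, reached at most 0.16 CPM and had 0 reads in wild type 4 and knockout 2 and 3. Mrap, an accessory protein of melanocortin receptors in fat, also reached at most 0.16 CPM, and neither was tested. The summed level of the 11 listed genes was 50.5 to 106 CPM in wild type and 40.0 to 66.1 CPM in the knockout. In whole tissue, fewer cells of a type and less RNA per cell cannot be told apart.

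Of 19 genes of brown fat and thermogenesis 12 had rows and 11 were tested. Of these, 2 were called higher and 1 lower, beside 16.6% and 14.3% of all genes, with a median log2 fold change of 0.11. Dio2, which activates thyroid hormone in brown fat, rose from 0.535 ± 0.22 to 2.08 ± 0.77 CPM (SD, n = 4 each), by 1.29 on the log2 scale (limma adjusted p = 0.00349), and passed the filter only through the knockout libraries. Cox8b, a cytochrome oxidase subunit of brown fat, heart and skeletal muscle, rose from 31.8 ± 5.22 to 56.3 ± 6.07 CPM (limma adjusted p = 0.000443). Kcnk3, a potassium channel that brown fat shares with pulmonary artery smooth muscle and heart, fell from 11.8 ± 0.96 to 5.68 ± 0.72 CPM (limma adjusted p = 9.37e-05). The genotypes did not overlap for these 3 of the 11 genes tested, beside 31.2% of all genes. The coactivators Ppargc1a and Ppargc1b and the brown fat regulator Prdm16 had log2 differences of 0.11, -0.49 and 0.11 and did not pass, nor did Elovl6, Cox7a1, Gk and Eva1a, at -0.15, 0.31, -0.03 and 0.23. Cpt1b was too low to be tested.

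Cardiac muscle, which shares Cox8b and Kcnk3 with brown fat, was present in all libraries: the summed level of 10 cardiac genes was 410 to 634 CPM in wild type and 374 to 583 CPM in the knockout. Of 9 tested, 2 were called higher, Myh7 and Myh6, and 2 lower, Nppa and Sln. Nppa went from 63.1 ± 25.1 to 0.0725 ± 0.06 CPM (SD, n = 4 each, limma adjusted p = 1.81e-08). It passed the filter only through the wild type libraries. Myh7 went from 10.5 ± 0.21 to 30 ± 0.69 CPM (limma adjusted p = 7.15e-08). The call for Sln did not hold without wild type 1, 3 or 4 or knockout 3 or 4, where its limma adjusted p was 0.0514 to 0.0802. Skeletal muscle genes, of which 4 of 10 had rows, summed to 12.3 to 18 CPM in wild type and 7.1 to 12.1 CPM in the knockout, narrowly without overlap. Of 3 tested, 0 were called higher and 1 lower, Ckm, the muscle creatine kinase, at a limma adjusted p of 0.0151. The part of muscle in the levels of Cox8b, Kcnk3 and Car3 was not tested.

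Relatives of the members in their gene families numbered 20, of which 15 were tested, with 1 called higher and 3 lower and a median log2 fold change of -0.19. The 3 were Fabp5, Retnla and C1qtnf6. The value of Fabp5 is uncertain, and the calls for Retnla and C1qtnf6 were lost in some alternatives, as described below. Fabp5, the epidermal relative of Fabp4, averaged 241 ± 19.2 CPM in wild type libraries against 4.54 ± 0.27 CPM in knockout libraries, while Gm6166, a pseudogene with 99.1% identity to Fabp5 over 108 nt near the 5′ end, went from 0.175 ± 0.31 to 138 ± 16 CPM. Their sum was 242 ± 19 CPM in wild type libraries against 142 ± 16.1 CPM in knockout libraries. How tags were divided between the copies was not tested, and both values are reported as uncertain. None of the 7 members had such a copy at 97% identity. Retnla, a resistin-like protein of macrophages and airway, fell from 810 ± 121 to 510 ± 234 CPM (SD, n = 4 each, limma adjusted p = 0.0326), with overlapping genotypes. That call did not hold without wild type 1, 2 or 4 or knockout 1, 2 or 3, where the limma adjusted p was 0.0639 to 0.0865, nor in edgeR or DESeq2, with 0.0703 and 0.165.

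C1qtnf6, an adiponectin-like secreted protein, fell by 0.56 on the log2 scale (limma adjusted p = 0.0246), and without wild type 3 or 4 or knockout 1 or 3 the adjusted p was 0.0514 to 0.0636. Ucp3, the muscle uncoupling protein, rose by 0.46 (limma adjusted p = 0.03), and that call did not hold in DESeq2 or without any wild type library or knockout 3 or 4, with a highest adjusted p of 0.101. Ucp2, the uncoupling protein of many tissues, stood at 121 ± 5.21 and 128 ± 8.87 CPM and did not pass. The perilipins outside fat had log2 differences of -0.10 for Plin2, 0.02 for Plin3 and -0.42 for Plin5, none of which passed, and the sign for Plin3 turned under TMM, median-ratio and quantile scaling. Fabp1, Fabp3, Retnlg, C1qtnf1, C1qtnf2 and C1qtnf7 did not pass, at -0.08, -0.29, -0.50, -0.21, 0.12 and -0.18. Retnlg, a resistin-like gene of neutrophils, passed in 8 of 18 alternatives, the 3 scalings, edgeR and DESeq2 among them. C1qtnf7 passed in 5, which were the 3 scalings, edgeR and DESeq2, and Fabp1 and Fabp3 in 1 each, without knockout 2. Cideb, Fabp7 and C1qtnf3 were too low to be tested.

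The 10 listed transcription factors of adipocyte formation included 0 called higher and 1 lower, with a median log2 fold change of -0.04. Klf15, a Krüppel-like factor that drives adipogenesis and nutrient use, fell by 0.77 on the log2 scale (SE 0.20), from 39.4 ± 6.49 to 23.7 ± 8.35 CPM (SD, n = 4 each, limma adjusted p = 0.0137). Pparg, the master regulator of adipocyte formation, which alveolar macrophages also need, stood at 7.58 ± 1.05 and 7.40 ± 1.54 CPM, with a log2 difference of -0.04 (95% interval -0.37 to 0.28). Cebpa, its partner in mature adipocytes, had a difference of 0.26 and did not pass. Cebpb, Cebpd, Rxra, Ebf1, Srebf1, Mlxipl and Zfp423 did not pass, at 0.27, 0.23, -0.30, -0.19, -0.04, -0.30 and 0.25. Of these, Rxra passed in 5 of 18 alternatives, edgeR and DESeq2 among them. Cebpb passed in 4, DESeq2 among them, and Zfp423 in 1, without knockout 1.

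Of 12 tested genes of fat breakdown and droplet maintenance, with a median log2 fold change of 0.02, 3 were called higher and 1 lower. Over all genes tested, 16.6% were called higher and 14.3% lower, which also stands beside the next list. Lipe, hormone-sensitive lipase, rose by 0.62 on the log2 scale (limma adjusted p = 0.0092), Hilpda, an inhibitor of adipose triglyceride lipase, by 0.51 (0.000575) and Pnpla2, adipose triglyceride lipase itself, by 0.24 (0.0382), while G0s2, another inhibitor of that lipase, fell by 0.55 (0.00674). The call for Pnpla2 did not hold in 12 alternatives, among them edgeR, DESeq2 and the 3 scalings, and was lost when any library but knockout 2 was left out. Of 19 tested genes of fat uptake and triglyceride synthesis, with a median of -0.11, 1 was called higher, Lpl, lipoprotein lipase, by 0.36 (limma adjusted p = 0.00489), and 5 lower. Among the latter, Acsl1, which activates fatty acids, fell by 0.90 (3.1e-05), Dgat2, the final enzyme of triglyceride synthesis, by 1.24 (0.00435) and Agpat2, an enzyme of phosphatidic acid synthesis, by 0.38 (0.00344). Fasn, fatty acid synthase, and Gpd1, which makes glycerol phosphate, fell by 0.45 (0.00793) and 0.30 (0.0247) and were named after their values were seen. Among other adipokines Angptl4, an inhibitor of lipoprotein lipase, rose by 1.60 (limma adjusted p = 0.00084), the only 1 called of 5 tested.

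Of the 5 receptors of the secreted members, all tested, 0 were called higher and 1 lower, with a median log2 fold change of -0.01. Adipor1, an adiponectin receptor, fell by 0.34 on the log2 scale, from 160 ± 5.49 to 126 ± 16 CPM (SD, n = 4 each, limma adjusted p = 0.0107), without overlap. Adipor2 had a difference of -0.01, and Cdh13, the T-cadherin that binds adiponectin on endothelium, of 0.21, and neither passed. Cap1 and Tlr4, which are described as receptors of resistin, had differences of -0.08 and 0.11 and did not pass. In the alternative complement pathway, in which factor D acts, C3, the central component, fell by 0.63 (limma adjusted p = 0.00121) and C5ar1, a receptor for C5a, by 0.38 (0.00839). Cfb, the substrate of factor D, had a difference of 0.22 that did not pass.

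Markers of other cells that a lung sample could hold were summed in the same way. Mesothelial genes gave 369 to 465 CPM in wild type and 443 to 480 CPM in the knockout, adventitial fibroblast genes 490 to 539 and 493 to 533, and neutrophil genes 456 to 635 and 400 to 610, all overlapping. Single genes in these lists differed: of 8 adventitial genes 2 were called higher, Pi16 and Dpp4, and 2 lower, Sfrp2, from 27.5 ± 6.34 to 3.17 ± 1.06 CPM (limma adjusted p = 7.03e-06), and Ly6a. Of 8 tested neutrophil genes 0 were called higher and 2 lower, Ltf, from 14.8 ± 2.74 to 6.57 ± 2.81 CPM (limma adjusted p = 0.00405), and Lcn2, and of 6 mesothelial genes 0 higher and 1 lower, Msln. The call for Ly6a was lost without wild type 2 or 4 or knockout 1, 2 or 3, and that for Msln without wild type 2, 3 or 4 or knockout 1, 3 or 4, with adjusted p-values up to 0.0927 and 0.0986. Lipofibroblast and alveolar fibroblast genes gave 2557 to 3023 CPM in wild type and 1975 to 2283 CPM in the knockout, without overlap. That separation rests on Inmt, a methyltransferase gene at 1369 to 1841 and 714 to 1080 CPM; without it the sums were 1181 to 1348 and 1203 to 1392 CPM and overlapped. Of the 9 fibroblast genes in that list, 4 were called higher and 2 lower, and of the 10 alveolar macrophage genes 3 were called higher, Ear2, Marco and Plet1, and 0 lower. Thymocyte genes, with 4 of 8 listed, gave 16.6 to 21.6 and 18.8 to 23.3 CPM, and the 2 listed genes of oesophagus and thyroid together at most 0.48 CPM. The part of these cells in the levels of the adipocyte genes was not tested.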

How the data were processed

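Lung RNA of 8 mice was profiled by CAGE. Per the labels' protocols, RNA of integrity number above 7 was cap-trapped, and 8 barcoded libraries were sequenced with single-end 75 nt reads. Tools listed in the submitters' processing notes, with no role or order, are edgeR, HISAT2 2.0.5 and BWA 0.7.12-r1039, and the build is mm9. The authors deposited 1 table of CPM per gene. Its low values are whole multiples of what 1 read is worth, from which reads were recovered (100% of values whole within 0.1 reads). Genes reaching 1 CPM in 4 or more of 8 libraries were tested with limma 3.58.1 (variance trend) on log2(CPM + 0.5), two-sided, with Benjamini-Hochberg adjustment over 14065 genes. Fold changes on this scale understate those of low genes. edgeR 4.0.16 and DESeq2 1.42.0 on recovered reads, other pseudocounts, filters and scalings, a replicate block and leaving out each library were alternatives. The test was run on simulated data first. Named are the members, every gene of the closest lists, up to 4 called genes of each other list, and the 10 genes most like Adipoq. The members and lists were chosen with earlier results of these data known. Older symbols were matched through GENCODE M21. Promoter sequences are from RefSeq (GRCm38.p6). Some results are not reported here.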

Additional observations from a re-analysis of the deposited data

Results flagged for a closer look

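Within each genotype, the highest and lowest of the 4 libraries were compared with the others by Dixon's gap rule for 102 genes, or 204 groups, and 9 groups had a library far from the rest. About 1 in 20 groups is expected by chance. Among the members, Plin1 in knockout 1 stood at 1.66 CPM, above the 0.77 to 0.83 CPM of the other knockout libraries. Among the other adipocyte-defining genes, Lgals12 in wild type 2 stood at 1.02 CPM, below 1.32 to 1.35 CPM in the others.

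Knockout 3 was the library set apart for Ppargc1b, high at 1.1 CPM against 0.61 to 0.68 CPM, for Eva1a, low at 7.18 CPM against 10.53 to 10.91 CPM, for C1qtnf7, low at 36.37 CPM against 41.57 to 41.6 CPM, and for Sfrp2, low at 1.59 CPM against 3.51 to 3.84 CPM. Fabp1 was high in knockout 2 at 112.39 CPM against 78.53 to 81.57 CPM. G0s2 was high in wild type 1 at 243.43 CPM against 166.29 to 172.64 CPM. Pi16, a fibroblast marker, was high in knockout 1 at 36.1 CPM against 27.4 to 28.74 CPM.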

How the results depend on the processing

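The counts of all genes called stayed within 1.5 times of the main count in all alternatives, and no member was called higher in any of the 18. The count of members called lower, 2 in the main analysis, was 0 with a filter of at least 5 CPM in 4 libraries, which leaves Retn and Plin1 untested, 1 after quantile normalization, 1 in DESeq2 and 0 with the replicate number as a block, and 0 to 3 when each library was left out in turn. The adjusted p of Retn ranged from 0.0123 to 0.11 and its call was lost in 7 of 17 alternatives, and that of Plin1 ranged from 0.0116 to 0.12, lost in 8 of 17. Same-numbered libraries of the genotypes did not deviate together over the genes tested (r = 0.04, 0.03, -0.003 and 0.06). With 4 libraries a genotype, these values cannot show whether same-numbered mice were paired by litter or handling. Of 51 called genes followed under the alternatives, which do not include Nos3, Gm6166, Fasn and Gpd1, 36 kept the call in all alternatives run and 15 lost it in some, with no reversal, and 13 of 45 not called passed in some.

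Among these genes, signs turned in 9, all with differences that did not pass the test. Cidec was 0.01 and Gk 0.003 after quantile normalization. Plin3 was -0.0006 with TMM, -0.0003 with median-ratio and -0.01 with quantile scaling, and Prrx1 was -0.01 with TMM, median-ratio scaling, edgeR and DESeq2. With each library left out in turn, the log2 difference ranged from -0.05 to 0.27 for Fabp4, -0.17 to 0.07 for Cidec, -0.07 to 0.19 for Cidea, -0.08 to 0.02 for Gk, -0.04 to 0.11 for Plin3, -0.16 to 0.07 for Pparg, -0.07 to 0.02 for Srebf1, -0.10 to 0.07 for Adipor2 and -0.04 to 0.06 for Prrx1. Depth limits Plin1, with 10 to 52 reads a library, and Lep and Mrap, at or below 3 reads.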
